A study of Homo sapiens with 16 samples.

Results

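The comparison described here sets the 4 zdna3 libraries of a U2OS RNA-seq series against its 4 zdna1 libraries, with the arm, CC or CL, held as a blocking factor. The members were chosen by their labels alone: 8 of the 16 libraries, namely 2 zdna3 CC, 2 zdna3 CL, 2 zdna1 CC and 2 zdna1 CL libraries. U2OS is a human osteosarcoma cell line that keeps wild-type p53, and every library is total RNA from it. The labels give the number and arm as the genotype (zdna3_CC, zdna3_CL, zdna1_CC, zdna1_CL) and do not say what CC, CL or the numbers stand for, nor do they name an agent, a dose, a time or a clone. Reads of each library were counted on the human genome plus a contig named after its own number, 190 bases long for zdna3 and 198 bases long for zdna1. The title of the series concerns MYC, the histone chaperone FACT and Z-DNA in transcription. The question this comparison answers is which human transcripts differed between cells of these numbers in both arms.

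As background, early response genes such as FOS, JUN and EGR1 encode transcription factors whose transcripts are made within minutes of a growth factor, stress or serum signal, without new protein synthesis, and are short-lived. MYC binds DNA with its partner MAX at E-box sequences and drives growth genes, among them those for ribosome production. FACT, made of SUPT16H and SSRP1, takes apart and rebuilds nucleosomes ahead of and behind RNA polymerase. Z-DNA is a left-handed form of the double helix that alternating purine and pyrimidine runs adopt under negative supercoiling, which topoisomerases relax, and ADAR and ZBP1 hold domains that bind it.

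Human genes held 42494 to 83269 reads in the zdna3 libraries and 111166 to 170980 in the zdna1 libraries, so 1 read was worth 12 to 23.5 CPM (reads scaled to a total of 1000000 human-gene reads) in zdna3 and 5.85 to 9 CPM in zdna1. These depths are low. The floors given below for ZBP1 cover counting error only. The contig took 87.5% of assigned reads in zdna3 CC, 21.2% in zdna3 CL, 26.5% in zdna1 CC and 0.365% in zdna1 CL (means of 2 libraries). The deposited values carry a factor per library of unstated origin, and on that scale the human genes summed to 7872 to 14798 in zdna3 and 28945 to 36728 in zdna1. In zdna3 CC and zdna3 CL no replicate difference beyond sampling noise was found over 971 and 1866 genes (chi-square p = 0.674 and 0.0705). At these depths that does not show its absence. In zdna1 CC and zdna1 CL the replicates did differ beyond it (chi-square p = 0.00374 and 0.0021). The contig shares of the zdna3 replicates differed (chi-square p = 0.00183 in CC and 5.46e-06 in CL). The zdna3 replicates were therefore kept as separate libraries and also tested summed. The first principal component, 38.6% of the variance over 925 genes, put the zdna3 libraries at 5.44 to 6.85 and the zdna1 libraries at −6.72 to −5.57. Summed osteoblast and mesenchymal markers lay at 5161 to 6461 CPM in zdna3 and 5226 to 6045 CPM in zdna1, and 0 of 7 tested markers were called. Summed epithelial markers lay at 447 to 600 CPM in zdna3 and 270 to 439 CPM in zdna1, almost all from KRT18, the only one tested, which rose (log2 difference 0.64, limma adjusted p = 0.0438). Markers of blood, endothelial, neuronal and adipocyte cells summed to 0 to 94.1 CPM in zdna3 and 0 to 36.0 CPM in zdna1, with adipocyte markers at 0 in all 8 libraries. In such bulk RNA, fewer cells of one state and less RNA per cell cannot be told apart.

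Of 4596 genes tested, 166 (3.61%) differed between zdna3 and zdna1: 98 (2.13%) rose in zdna3 and 68 (1.48%) fell. A gene was called at a Benjamini-Hochberg adjusted p under 0.05 in limma, run on log2 of CPM plus 10, the scale of every log2 difference below. In 83 of the called genes the difference was at least 1 in size. In 140 called genes, 3.05% of those tested, the 4 zdna3 libraries did not overlap the 4 zdna1 libraries, with zdna3 above in 1.91% and below in 1.13%. This was counted among called genes only, on the values tested, so it adds no support. The share over all tested genes is not given here. Genes named below for size or abundance were picked for no overlap, so their separation was fixed by that rule. On the deposited scale the split turned: 6 genes rose and 4302 fell, and the median gene then differed by −1.47, against −0.06 on CPM. Every "rose" and "fell" below is therefore relative to the other human genes of the same library. edgeR's quasi-likelihood test on the recovered reads called 213 genes (4.63%), 158 of them the same genes in the same direction, and DESeq2 called 75. The count fell to 87 without zdna3 CL replicate 1, to 109 without zdna3 CL replicate 2, to 107 without zdna1 CL replicate 1, and to 78 with the zdna3 replicates summed.

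The strongest rises were in genes of the early response. Of 11 tested AP-1 subunits, the FOS, JUN and ATF proteins that pair to bind DNA, 4 rose and 0 fell. The list median was 0.85 on CPM and turned to −0.44 on the deposited scale. FOS, FOSB, JUNB and MAFF averaged 27.0, 25.5, 32.1 and 43.5 CPM in zdna1. They reached the mean of 50 CPM needed for testing only through zdna3, so the values compared shape this count and median. FOS stood at 216 and 306 CPM in zdna3 CC and 240 and 264 CPM in zdna3 CL, against 18 and 11.7 CPM in zdna1 CC and 27.7 and 50.9 CPM in zdna1 CL. The groups were far apart in both arms, on 12 to 22 FOS reads per zdna3 library and 2 to 8 per zdna1 library, and the log2 difference was 2.86 ± 0.34 (SE; limma adjusted p = 2.82e-07). FOSB, its close relative, stood at 252, 259, 164 and 372 CPM in the zdna3 libraries (CC first, then CL, here and in the lists that follow), against 27.0, 35.1, 20.7 and 19.1 CPM in zdna1, a log2 difference of 2.95 ± 0.33 (limma adjusted p = 8.21e-08). JUN, the usual partner of FOS, stood at 683, 706, 859 and 769 CPM in zdna3, against 234, 234, 228 and 178 CPM in zdna1. No zdna3 library came near a zdna1 library, and JUN rose by 1.79 ± 0.17 on the log2 scale (limma adjusted p = 1.15e-08). ATF3, a stress-induced member, stood at 396, 494, 303 and 432 CPM in zdna3, against 126, 123, 48.4 and 102 CPM in zdna1 (log2 difference 2.03 ± 0.25, limma adjusted p = 4.89e-07). FOS, FOSB, JUN and ATF3 were called in every fit that left out 1 library. In zdna2 and zdna4, the other numbers of the series, FOS lay at 0 to 67.7 CPM, JUN at 0 to 324 CPM and ATF3 at 64.5 to 153 CPM, below every zdna3 library.

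**Figure D1:**
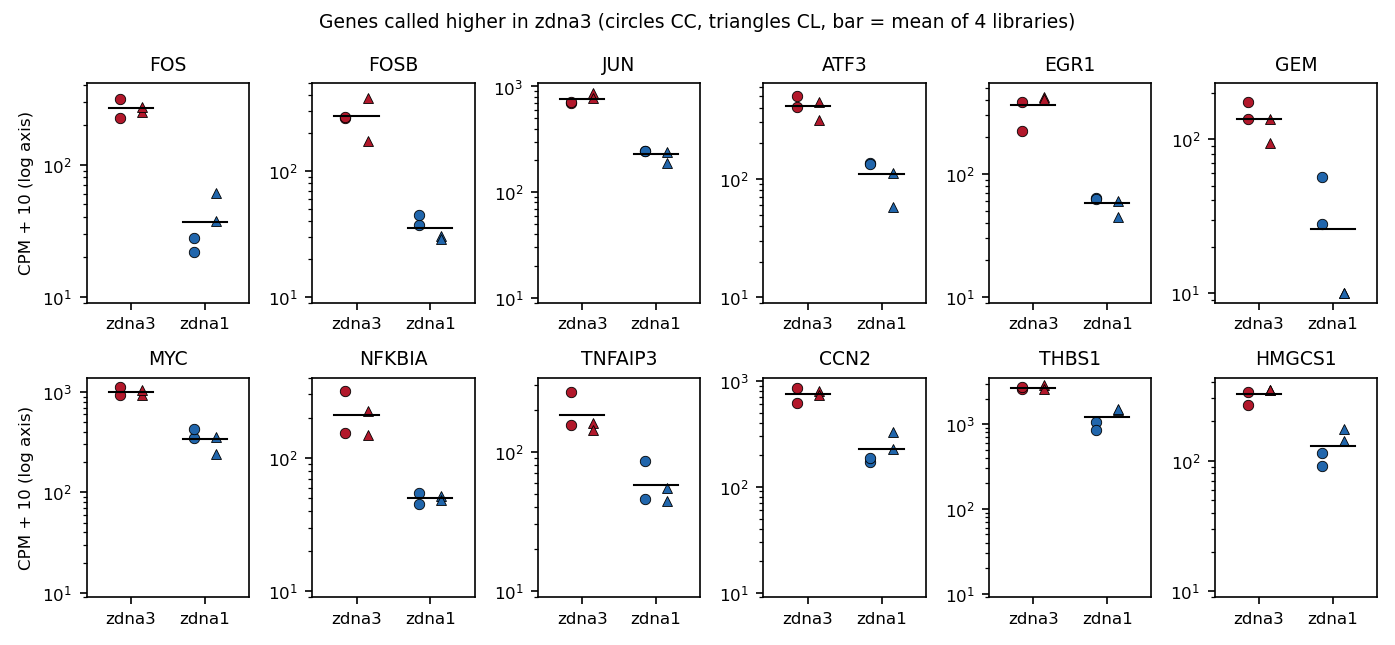
CPM plus 10 (log axis) of 12 genes called higher in zdna3, with zdna3 left of zdna1; circles are CC libraries, triangles CL libraries and bars the means of 4 libraries. In each panel the 4 zdna3 libraries lie above the 4 zdna1 libraries, as for FOS (216 to 306 against 11.7 to 50.9 CPM), although on the deposited scale THBS1 turned to −0.43 and HMGCS1 to −0.18.

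Among the other early response genes, 4 of 12 tested rose and 1 fell, with a list median of 0.52 on CPM and −0.87 on the deposited scale. EGR1, NR4A1 and GEM averaged 48.0, 21.9 and 16.2 CPM in zdna1 and reached the mean of 50 CPM only through zdna3. The values compared thus shape the list's count and median in part. EGR1, a zinc finger transcription factor induced through serum response factor, stood at 378, 212, 417 and 396 CPM in zdna3, against 54.0, 52.6, 34.6 and 50.9 CPM in zdna1. All 4 zdna3 libraries lay far above all zdna1 libraries, with a log2 difference of 2.69 ± 0.27 (limma adjusted p = 1.86e-08), and the value in zdna2 and zdna4 was 31.1 to 127 CPM. DUSP1, a phosphatase that shuts off MAP kinases, averaged 240 ± 31 CPM in zdna3 and 106 ± 40 CPM in zdna1 (SD, n = 4 each; log2 difference 1.17, limma adjusted p = 0.00834). Its call was lost without zdna1 CL replicate 1 (limma adjusted p = 0.0636) and with the zdna3 replicates summed (0.0598), and it turned to −0.31 on the deposited scale. ZFP36L1, which binds AU-rich elements and speeds mRNA decay, averaged 708 ± 125 CPM in zdna3 and 399 ± 31 CPM in zdna1 (log2 difference 0.82, limma adjusted p = 0.000902). NR4A1, an orphan nuclear receptor, averaged 93.3 ± 21.1 CPM in zdna3 and 21.9 ± 7.9 CPM in zdna1 (log2 difference 1.70, limma adjusted p = 0.0323) on 4 to 9 reads per zdna3 library and 2 to 5 per zdna1 library. That call was lost without any 1 of 5 libraries (each zdna3 library and zdna1 CL replicate 2, limma adjusted p 0.0723 to 0.195) and with the zdna3 replicates summed (0.187). ERRFI1, which restrains the EGF receptor, went the other way, averaging 115 ± 63 CPM in zdna3 and 235 ± 30 CPM in zdna1 (log2 difference −1.18, limma adjusted p = 0.0136). Its call was lost without zdna3 CL replicate 1 (0.23), without zdna1 CL replicate 1 (0.0765), by DESeq2 (0.148), with the zdna3 replicates summed (0.0553) and without array weights (0.0637). GEM, a small GTPase induced by mitogens, stood at 126, 165, 126 and 84.1 CPM in zdna3, against 18, 46.8, 0 and 0 CPM in zdna1. It rested on 7 to 10 reads per zdna3 library and 0 to 8 per zdna1 library (log2 difference 2.89 ± 0.53, limma adjusted p = 0.00045).

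The sequences upstream of 3 of the genes that rose are shown because they hold a searched motif. Each is the RefSeq window of 300 bases from 250 before to 50 after the gene's start, on the gene's strand in GRCh38.p14, with motif letters in capitals. EGR1 lies at chr5:138465229-138465528 (plus strand), DUSP1 at chr5:172771146-172771445 (minus strand) and TNFAIP3 at chr6:137867009-137867308 (plus strand).
EGR1: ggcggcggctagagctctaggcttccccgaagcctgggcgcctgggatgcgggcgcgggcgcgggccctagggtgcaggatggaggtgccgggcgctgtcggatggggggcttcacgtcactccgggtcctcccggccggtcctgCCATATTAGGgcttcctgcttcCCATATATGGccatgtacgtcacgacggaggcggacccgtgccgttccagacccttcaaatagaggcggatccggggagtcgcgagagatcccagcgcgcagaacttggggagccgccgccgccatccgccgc
DUSP1: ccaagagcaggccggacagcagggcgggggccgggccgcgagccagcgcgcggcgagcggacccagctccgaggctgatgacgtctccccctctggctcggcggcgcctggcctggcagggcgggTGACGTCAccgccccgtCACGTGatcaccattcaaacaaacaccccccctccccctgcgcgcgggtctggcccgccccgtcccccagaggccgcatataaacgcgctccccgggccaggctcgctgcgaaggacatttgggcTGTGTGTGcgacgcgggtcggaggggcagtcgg
TNFAIP3: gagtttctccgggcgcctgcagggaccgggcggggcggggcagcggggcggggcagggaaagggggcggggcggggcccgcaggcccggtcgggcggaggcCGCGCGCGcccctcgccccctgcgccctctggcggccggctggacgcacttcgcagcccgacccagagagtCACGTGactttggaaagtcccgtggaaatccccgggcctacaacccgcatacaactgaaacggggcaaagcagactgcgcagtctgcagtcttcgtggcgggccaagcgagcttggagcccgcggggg
In EGR1 the capitals mark 2 CArG boxes, the element that serum response factor binds (CC, then A or T bases, then GG), starting at −105 and −83 from the gene's start. In DUSP1 they mark TGACGTCA at −125, the palindrome that CREB and ATF proteins bind, CACGTG at −108, the E-box form that MYC and MAX bind, and TGTGTGTG at +18. In TNFAIP3 they mark the alternating run CGCGCGCG at −149 and CACGTG at −78. Both strands were searched, TGACGTCA, TGACTCA and the CArG box were added after the values were seen, and no 2 of the 6 searched motifs overlap in these windows. Of the called genes, 77 of the 98 that rose and 44 of the 68 that fell had a window, as did 3785 of the 4596 tested. A CArG box was in 9.09% of the windows of genes that rose, in 4.55% of those of genes that fell and in 1.35% of those of all tested genes. Among genes that rose these were AKAP12, CAPN2, EGR1, H2AC20, H2BC21, RCAN1 and RND3, of which H2AC20 and H2BC21 share 1 stretch between divergent starts, and among genes that fell CNN2 and FLNA. TGACTCA, the AP-1 site, was in 10.4% of the windows of genes that rose, 4.55% of those that fell and 2.99% of all. CACGTG was in 5.19%, 20.5% and 11.3% of these windows, CGCGCGCG in 2.60%, 13.6% and 6.63%, CACACACA or its complement in 2.60%, 6.82% and 2.14%, and TGACGTCA in 5.19%, 2.27% and 4.15%. The FOS, FOSB, JUN, ATF3, NR4A1 and CCN2 windows held none of the 6.

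Of 29 listed NF-kappaB targets and cytokines, 9 reached a mean of 50 CPM over the 8 libraries, the filter for testing. Of these 9, 4 rose and 0 fell, with a list median of 0.56 on CPM and −0.87 on the deposited scale. CXCL8, NFKBIA and TNFAIP3 averaged 9.67, 39.9 and 47.8 CPM in zdna1. They reached the filter only through zdna3, so the values compared shape this count and median. NFKBIA encodes the inhibitor that holds NF-kappaB in the cytoplasm and is itself a target of it. It stood at 144, 306, 139 and 216 CPM in zdna3, against 45.0, 35.1, 41.5 and 38.1 CPM in zdna1, and rose by 2.00 ± 0.32 (limma adjusted p = 6.29e-05). TNFAIP3, a ubiquitin-editing enzyme that ends NF-kappaB signalling, stood at 144, 259, 152 and 132 CPM in zdna3, against 36.0, 76.0, 34.6 and 44.5 CPM in zdna1 (log2 difference 1.66 ± 0.33, limma adjusted p = 0.00131). For both genes the lowest zdna3 library lay above the highest zdna1 library. SOD2, the mitochondrial superoxide dismutase, averaged 261 ± 114 CPM in zdna3 and 99.1 ± 17.7 CPM in zdna1 (log2 difference 1.24, limma adjusted p = 0.00207), and 6.2% of its exon bases overlap other genes. CXCL8, the neutrophil chemokine interleukin-8, stood at 89.9, 118, 114 and 72.1 CPM in zdna3, against 0, 0, 6.91 and 31.8 CPM in zdna1. These are 5 to 9 reads per zdna3 library and 0 to 5 per zdna1 library. The call (log2 difference 2.56, limma adjusted p = 0.0122) was lost without zdna3 CC replicate 1 (0.0693), zdna3 CC replicate 2 (0.0685) or zdna3 CL replicate 1 (0.112), and with the zdna3 replicates summed (0.103). NFATC2, a calcium-responsive transcription factor, stood at 216, 141, 215 and 228 CPM in zdna3, against 36.0, 29.2, 27.7 and 38.1 CPM in zdna1 (log2 difference 2.32 ± 0.32, limma adjusted p = 6.85e-06).

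Targets shared by YAP and TGF-beta, which report on cell tension, adhesion and matrix, showed 6 rises and 0 falls among 17 tested, with a list median of 0.30 on CPM and −1.27 on the deposited scale. CCN2, a matrix-associated growth regulator, stood at 845, 612, 783 and 721 CPM in zdna3, against 162, 175, 318 and 216 CPM in zdna1. THBS1, which makes thrombospondin-1, stood at 2572, 2706, 2880 and 2582 CPM in zdna3, against 1044, 848, 1445 and 1500 CPM in zdna1. Neither gene's groups overlapped, and the log2 differences were 1.71 ± 0.19 for CCN2 (limma adjusted p = 5.05e-08) and 1.13 ± 0.12 for THBS1 (4.46e-08). ANKRD1, a nuclear ankyrin-repeat protein, averaged 645 ± 84 CPM in zdna3 and 252 ± 61 CPM in zdna1 (log2 difference 1.38, limma adjusted p = 1.06e-06). The extracellular matrix and osteoblast list had 4 rises and 0 falls among 31 tested, with a median of 0.02 on CPM and −1.50 on the deposited scale. CCN2 and THBS1 are in it too. The others were the type IV collagen chains of the basement membrane, COL4A1 at 199 ± 44 CPM in zdna3 and 76.5 ± 19.9 CPM in zdna1 (log2 difference 1.28, limma adjusted p = 0.00246) and COL4A2 at 489 ± 38 CPM in zdna3 and 287 ± 30 CPM in zdna1 (0.73, 0.00894). COL4A1 and COL4A2 lost the call with the zdna3 replicates summed (limma adjusted p = 0.0525 and 0.0885), and COL4A2 also without zdna3 CL replicate 1 (0.0508). PDLIM4, an actin-associated PDZ and LIM protein, averaged 175 ± 54 CPM in zdna3 and 47.8 ± 34.5 CPM in zdna1 (log2 difference 1.70, limma adjusted p = 0.00567), a call lost without zdna3 CC replicate 1 (0.0551).

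Actins and actin-linked scaffolds moved in both directions: 2 of 33 tested rose and 2 fell, with a list median of −0.04 on CPM and −1.51 on the deposited scale. FLNC, filamin C, averaged 2747 ± 405 CPM in zdna3 and 1893 ± 324 CPM in zdna1 (log2 difference 0.62, limma adjusted p = 0.000683), while FLNA, filamin A, averaged 3513 ± 639 CPM in zdna3 and 4544 ± 510 CPM in zdna1 (−0.36, 0.0122). CNN2, the actin binder calponin 2, averaged 83.7 ± 38.5 CPM in zdna3 and 220 ± 84 CPM in zdna1 (log2 difference −1.29, limma adjusted p = 0.00207). FLNA lost its call when zdna3 CC replicate 1 (0.056) or zdna3 CL replicate 2 (0.054) was left out with the zdna3 replicates summed (0.173) and by DESeq2 (0.0681). PLEC, the cytoskeletal linker plectin, averaged 3976 ± 354 CPM in zdna3 and 3221 ± 233 CPM in zdna1 (log2 difference 0.31, limma adjusted p = 0.0346). Its call was lost without any 1 of 7 libraries (all but zdna1 CL replicate 2, limma adjusted p 0.0542 to 0.164), and by edgeR (0.0596), DESeq2 (0.12), the replicate block (0.0513) and the fit with the zdna3 replicates summed (0.291).

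In the cholesterol and fatty acid synthesis list, 3 of 17 tested rose and 0 fell, with a list median of 0.39 on CPM and −1.09 on the deposited scale. HMGCS1, an early enzyme of the cholesterol pathway, averaged 315 ± 38 CPM in zdna3 and 121 ± 36 CPM in zdna1 (log2 difference 1.32, limma adjusted p = 0.000215).

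Of 30 tested replication-dependent and linker histones, 10 rose and 0 fell, while 20 were not called. In all, 29 had positive log2 differences, with a list median of 0.65 on CPM and −0.83 on the deposited scale. H1-2, a linker histone, stood at 1457, 1624, 1414 and 1453 CPM in zdna3, against 801, 848, 836 and 845 CPM in zdna1. The groups were separated with little spread within either, and the log2 difference was 0.82 ± 0.12 (limma adjusted p = 1.46e-05). Among core histones, H2BC11 averaged 433 ± 133 CPM in zdna3 and 148 ± 34 CPM in zdna1 (log2 difference 1.53, limma adjusted p = 1.23e-05), and H2AC6 averaged 305 ± 59 CPM in zdna3 and 117 ± 12 CPM in zdna1 (1.32, 0.000184). H2BC12 averaged 802 ± 170 CPM in zdna3 and 476 ± 24 CPM in zdna1 (0.77, 0.00129). Reads of near-identical histone copies cannot be fully told apart. Of the 107 windows of 10 megabases that held at least 15 tested genes, the one with most rises was hg19 chromosome 6, 20000001 to 30000000, where the main histone cluster lies, with 8 of 34 tested genes higher, 0 lower and a median of 0.58. In the lists of S phase and DNA replication (32 tested) and of mitosis and G2/M (46 tested), whose genes accompany histone synthesis in dividing cells, limma called 0 genes, and the medians were −0.08 and −0.04 on CPM, −1.51 and −1.48 on the deposited scale.

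MYC itself rose. It stood at 917, 1106, 922 and 1045 CPM in zdna3, against 342, 415, 346 and 229 CPM in zdna1, so every zdna3 library lay far above every zdna1 library. The log2 difference was 1.62 ± 0.17 (limma adjusted p = 1.86e-08) at hg19 chr8:128747680-128755197, the call held without any 1 library, and zdna2 and zdna4 held 245 to 458 CPM. On the deposited scale the MYC difference was not called (limma adjusted p = 0.852). MYC was the only 1 of 12 tested genes of its network to be called, and its partner MAX stood at 47.1 to 108 CPM in zdna3 and 58.5 to 108 CPM in zdna1 (log2 difference −0.03 ± 0.36, limma adjusted p = 0.974). In the ribosome biogenesis and nucleolar list, 4 of 42 tested rose and 0 fell, with a list median of 0.28 on CPM and −1.18 on the deposited scale. That median was 0.02 within CC and 0.38 within CL. NOLC1, a nucleolar phosphoprotein, averaged 450 ± 79 CPM in zdna3 and 248 ± 97 CPM in zdna1 (log2 difference 0.98, limma adjusted p = 0.00447), a call lost without zdna3 CL replicate 2 (0.0702). NCL, nucleolin, averaged 1974 ± 62 CPM in zdna3 and 1522 ± 224 CPM in zdna1 (log2 difference 0.41, limma adjusted p = 0.0346), but the call was lost without any 1 of 6 libraries (all but zdna1 CC replicate 1 and zdna1 CL replicate 2, limma adjusted p 0.0544 to 0.202), by DESeq2 (0.134) and with the zdna3 replicates summed (0.199). The NCL level was 1895 to 2129 CPM in zdna2, near that of zdna3, and 1220 to 1468 CPM in zdna4. UBTF, which activates RNA polymerase I, averaged 347 ± 60 CPM in zdna3 and 208 ± 19 CPM in zdna1 (0.69, 0.0362), a call lost without any 1 of 7 libraries (all but zdna1 CL replicate 2, 0.0513 to 0.137), by DESeq2 (0.137) and with the zdna3 replicates summed (0.187). DDX18, a nucleolar helicase, averaged 302 ± 40 CPM in zdna3 and 183 ± 67 CPM in zdna1 (0.86, 0.0208), a call lost without either zdna3 CL or either zdna1 CL replicate (0.0574 to 0.221), by DESeq2 (0.136) and with the zdna3 replicates summed (0.0937). Within CC and CL, DDX18 had 0.25 and 1.27 (limma adjusted p = 0.859 and 0.00297) and NOLC1 had 0.47 and 1.32 (0.622 and 0.000688). The 76 tested cytosolic ribosomal protein genes had 0 calls and a median of 0.02 on CPM, −1.54 on the deposited scale.

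**Figure D2:**
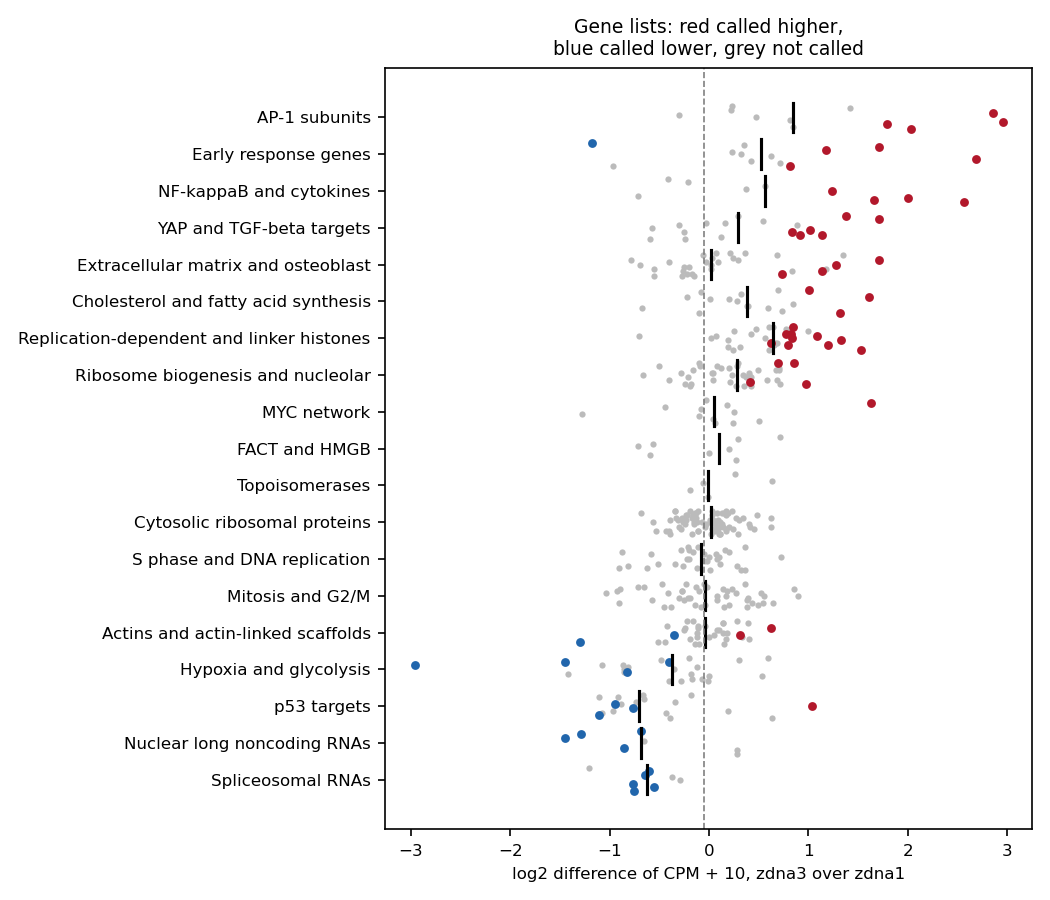
Log2 difference of CPM plus 10, zdna3 over zdna1, for every tested member of 19 gene lists; red points were called higher, blue points called lower and grey points not called. Black bars are list medians and the dashed line is the median of all tested genes (−0.06). AP-1 subunits lie farthest right (median 0.85, which turned to −0.44 on the deposited scale) and p53 targets farthest left (−0.70, −2.12 on the deposited scale). FOS, FOSB, JUNB and MAFF reached the filter for testing only through zdna3, which shapes the AP-1 median.

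For FACT, the topoisomerases and the Z-nucleic acid binders, no gene was called by limma. Of FACT, SUPT16H stood at 378, 353, 455 and 300 CPM in zdna3, against 441, 333, 263 and 305 CPM in zdna1 (log2 difference 0.20 ± 0.19, limma adjusted p = 0.648). SSRP1 stood at 611, 683, 518 and 636 CPM in zdna3, against 522, 532, 408 and 540 CPM in zdna1 (0.29 ± 0.16, 0.341). The groups of both genes overlapped. Of 8 tested genes in the FACT and HMGB list, HMGN2, a nucleosome-binding protein, had −0.60 (limma adjusted p = 0.134) and HMGB2, a DNA-bending protein, had 0.72 (0.236). TOP1 averaged 192 ± 54 CPM in zdna3 and 214 ± 89 CPM in zdna1, TOP2A averaged 429 ± 112 CPM in zdna3 and 462 ± 58 CPM in zdna1, and TOP2B averaged 219 ± 99 CPM in zdna3 and 169 ± 47 CPM in zdna1. The limma adjusted p-values were 0.994, 0.665 and 0.692, and that of the mitochondrial TOP1MT was 0.328. ADAR averaged 428 ± 52 CPM in zdna3 and 362 ± 30 CPM in zdna1 (log2 difference 0.21 ± 0.17, limma adjusted p = 0.58). ILF2, a subunit of a double-stranded RNA binding complex, had 0.29 (limma adjusted p = 0.518). ZBP1 had 0 reads in all 8 libraries, which allows up to 36.0 to 70.6 CPM in the zdna3 libraries and 17.5 to 27.0 CPM in the zdna1 libraries (3 reads). At unadjusted p under 0.05, 17.3% of all tested genes passed.

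Of the 6 abundant genes that rose by the naming rule, PLEC, FLNC, THBS1 and NCL are given above. HSPA8, the constitutive cytosolic chaperone, stood at 2158, 2353, 2096 and 2042 CPM in zdna3, against 1052, 936, 1479 and 1526 CPM in zdna1 (log2 difference 0.76, limma adjusted p = 0.000111). Every zdna3 library was above every zdna1 library, as the naming rule required. CHD4, the ATPase of the NuRD chromatin remodeller, averaged 1583 ± 239 CPM in zdna3 and 1186 ± 112 CPM in zdna1 (log2 difference 0.45, limma adjusted p = 0.0264). Its call was lost without any 1 of 5 libraries (both zdna3 CL, zdna1 CC replicate 2 and both zdna1 CL, limma adjusted p 0.052 to 0.241), by DESeq2 (0.12) and with the zdna3 replicates summed (0.137).

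Genes of hypoxia and glycolysis were among those that fell. Of 24 tested, 4 fell and 0 rose, with a list median of −0.38 on CPM and −1.88 on the deposited scale. DDIT4, a stress-induced inhibitor of mTORC1 signalling, stood at 36.0, 0, 37.9 and 24.0 CPM in zdna3, against 216, 216, 290 and 210 CPM in zdna1. These are 0 to 3 reads per zdna3 library and 24 to 42 per zdna1 library, no library overlapped, and the log2 difference was −2.96 ± 0.37 (limma adjusted p = 1.06e-06). In zdna2 and zdna4, DDIT4 lay at 102 to 244 CPM. SLC2A1, the glucose transporter GLUT1, stood at 126, 141, 114 and 72.1 CPM in zdna3, against 270, 357, 380 and 248 CPM in zdna1 (log2 difference −1.45 ± 0.24, limma adjusted p = 0.00016). NDRG1, a hypoxia-induced gene, averaged 243 ± 71 CPM in zdna3 and 447 ± 32 CPM in zdna1 (−0.82, 0.00894), a call lost without zdna3 CC replicate 2 (0.0655), by DESeq2 (0.0758) and with the zdna3 replicates summed (0.0521). LDHA, lactate dehydrogenase A, averaged 1150 ± 107 CPM in zdna3 and 1533 ± 71 CPM in zdna1 (log2 difference −0.40, limma adjusted p = 0.0423). Its call was lost without any 1 of 7 libraries (all but zdna1 CC replicate 1, limma adjusted p 0.0508 to 0.206), by DESeq2 (0.188), with the zdna3 replicates summed (0.228) and under the replicate block (0.0534). Unlike DDIT4, these genes reached into their zdna3 ranges in zdna2 and zdna4. SLC2A1 lay there at 99.9 to 305 CPM, NDRG1 at 152 to 602 CPM and LDHA at 1148 to 1764 CPM.

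Targets of p53 had 3 falls and 1 rise among 18 tested, with a list median of −0.70 on CPM and −2.12 on the deposited scale. MDM2, the ubiquitin ligase that p53 induces and that degrades p53, stood at 306, 329, 290 and 360 CPM in zdna3, against 873, 778, 567 and 706 CPM in zdna1. The highest zdna3 library lay well below the lowest zdna1 library, with a log2 difference of −1.10 ± 0.16 (limma adjusted p = 1.93e-05). CDKN1A, the cyclin-dependent kinase inhibitor p21, averaged 173 ± 55 CPM in zdna3 and 324 ± 29 CPM in zdna1 (log2 difference −0.94, limma adjusted p = 0.00818). It lost the call without zdna3 CL replicate 1 (0.116) and by DESeq2 (0.121), and 7.0% of its exon bases overlap an antisense gene. The CDKN1A level in zdna2 and zdna4 was 142 to 432 CPM, which reached into the zdna3 range. RRM2B, a p53-induced ribonucleotide reductase subunit, averaged 144 ± 26 CPM in zdna3 and 252 ± 24 CPM in zdna1 (log2 difference −0.77, limma adjusted p = 0.046), and the call was lost without any 1 of the 8 libraries (0.0508 to 0.206), by DESeq2 (0.283), with the zdna3 replicates summed (0.2) and under the replicate block (0.0514). GADD45A, a growth arrest gene that other stresses also induce, rose, averaging 305 ± 81 CPM in zdna3 and 165 ± 73 CPM in zdna1 (1.04, 0.00971). That call was lost without zdna3 CL replicate 1 (0.135), zdna3 CL replicate 2 (0.0946) or zdna1 CL replicate 1 (0.067) and by DESeq2 (0.0522), and the groups overlapped.

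Nuclear and long noncoding RNAs had 4 falls and 0 rises among 7 tested, with a list median of −0.68 on CPM and −2.20 on the deposited scale. MALAT1, an abundant RNA of nuclear speckles, stood at 108, 47.1, 63.2 and 60.1 CPM in zdna3, against 315, 333, 124 and 159 CPM in zdna1 (log2 difference −1.45 ± 0.29, limma adjusted p = 0.00129). The counting used no strand and 82.1% of the exon bases of MALAT1 overlap other annotated genes, TALAM1 among them, so part of its reads cannot be assigned. NEAT1, the scaffold of paraspeckles, stood at 252, 353, 303 and 384 CPM in zdna3, against 621, 620, 657 and 515 CPM in zdna1 (log2 difference −0.86 ± 0.17, limma adjusted p = 0.00137). Its groups did not overlap, nor did those of TUG1, which averaged 107 ± 44 CPM in zdna3 and 254 ± 24 CPM in zdna1 (−1.29, 0.00137). NORAD, which binds PUMILIO proteins, averaged 256 ± 63 CPM in zdna3 and 406 ± 26 CPM in zdna1 (−0.68, 0.0345). The NORAD call was lost without any 1 of 5 libraries (zdna3 CC replicate 2, zdna3 CL replicate 2, zdna1 CC replicate 2 and both zdna1 CL replicates, limma adjusted p 0.0551 to 0.246), by DESeq2 (0.249) and with the zdna3 replicates summed (0.166).

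**Figure D3:**
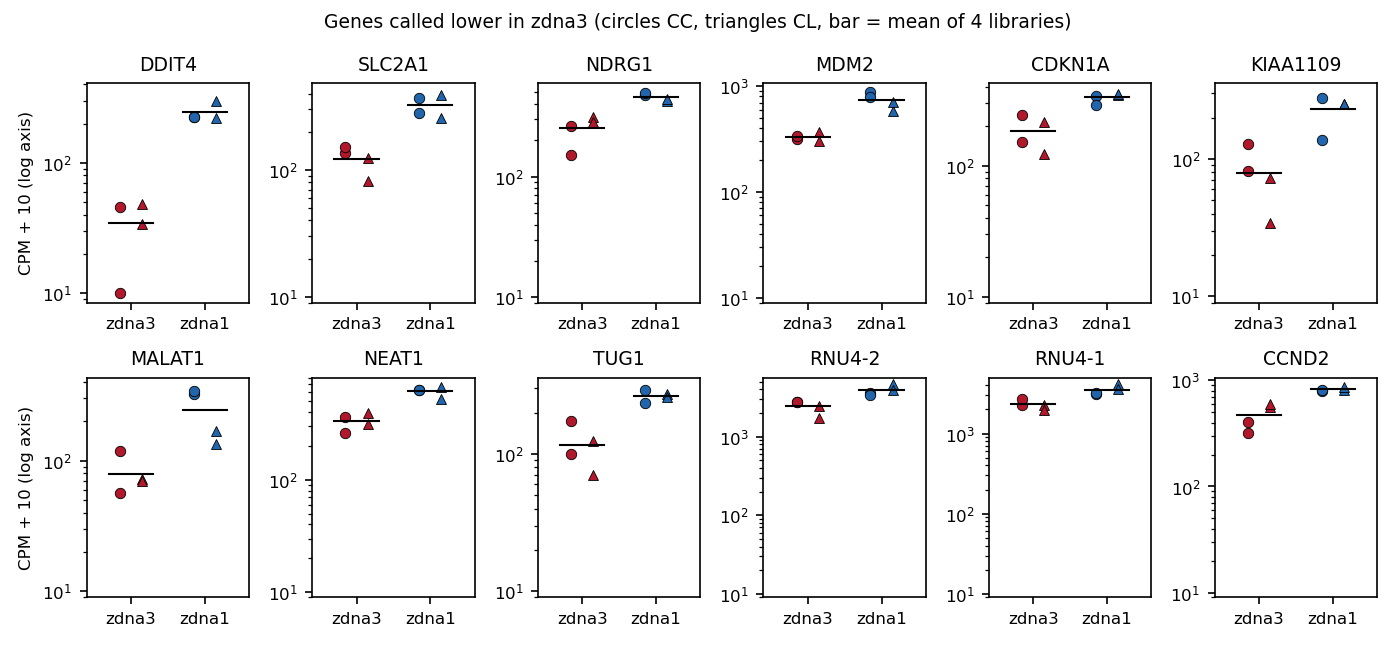
CPM plus 10 (log axis) of 12 genes called lower in zdna3, with zdna3 left of zdna1; circles are CC libraries, triangles CL libraries and bars the means of 4 libraries. DDIT4 lies at 0 to 37.9 CPM in the zdna3 libraries and at 210 to 290 CPM in the zdna1 libraries, and RNU4-2 is lower in zdna3 mainly in the CL libraries (triangles).

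Small RNAs of the spliceosome had 5 falls and 0 rises among 8 tested, with a list median of −0.62 on CPM and −2.18 on the deposited scale. The list's median was −0.15 within CC and −1.04 within CL. RNU4-2 and RNU4-1, copies of the U4 RNA that pairs with U6 before the spliceosome becomes active, are shown because 97.2% of their 141 aligned bases are the same, so reads of 1 copy can be placed on the other. Sequences are GENCODE v29 transcripts on GRCh38, RNU4-2 at chr12:120291763-120291903 and RNU4-1 at chr12:120293097-120293237 (minus strand), with the 4 differing bases in capitals.
RNU4-2: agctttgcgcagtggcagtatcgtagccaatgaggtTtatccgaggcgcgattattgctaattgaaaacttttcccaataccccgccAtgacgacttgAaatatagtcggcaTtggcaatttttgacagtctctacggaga
RNU4-1: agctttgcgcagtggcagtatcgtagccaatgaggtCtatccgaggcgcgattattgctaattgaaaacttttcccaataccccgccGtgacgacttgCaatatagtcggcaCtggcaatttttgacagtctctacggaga
RNU4-2 stood at 2770, 2777, 2425 and 1693 CPM in zdna3, against 3607, 3369, 4632 and 3928 CPM in zdna1 (log2 difference −0.76 ± 0.12, limma adjusted p = 6.61e-05). RNU4-1 averaged 2298 ± 278 CPM in zdna3 and 3502 ± 476 CPM in zdna1 (−0.64, 0.000137). Both copies lay below zdna1 in every library of both arms: within CC RNU4-2 had −0.30 and RNU4-1 −0.33, not called (limma adjusted p = 0.356 and 0.23), and within CL −1.07 and −0.85 (1.24e-09 and 5.65e-08). CL minus CC was called for RNU4-2 (limma adjusted p = 0.0244) and not for RNU4-1 (0.3). The RNU4-2 level in zdna2 and zdna4 was 1932 to 2822 CPM, within or near the range of zdna3 and below every zdna1 library. RNU5E-1 averaged 2018 ± 713 CPM in zdna3 and 2754 ± 265 CPM in zdna1 (log2 difference −0.60, limma adjusted p = 0.00567), and RNU12 averaged 491 ± 279 CPM in zdna3 and 661 ± 40 CPM in zdna1 (−0.76, 0.0257). Both overlapped between groups, and both calls were lost without zdna3 CL replicate 1 (0.146 and 0.116), without zdna1 CL replicate 1 (0.0574 and 0.149) by DESeq2 (0.144 and 0.343) and without array weights (0.076 and 0.167). RNU12 lost it also without zdna3 CL replicate 2 (0.32) or zdna1 CL replicate 2 (0.138). Both fell in CL only: within CC RNU5E-1 had −0.00 and RNU12 0.14 (limma adjusted p = 0.997 and 0.897). Within CL they had −1.0 and −1.37 (2.01e-08 and 7.21e-06). For RNU12, CL minus CC was −1.505 (limma adjusted p = 0.0149).

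The other falls of large size were in genes of mixed function. KIAA1109, a lipid transport protein, stood at 71.9, 118, 63.2 and 24.0 CPM in zdna3, against 270, 129, 242 and 242 CPM in zdna1 (log2 difference −1.77 ± 0.33, limma adjusted p = 0.000606). The CC groups nearly met and the CL groups lay apart. SLFN5, ATP2C1, GSE1, CD109, ZNF395 and SHOC1 had log2 differences of −1.82, −1.74, −1.71, −1.61, −1.39 and −1.31, with means of 28.6 to 60.2 CPM in zdna3 and 107 to 152 CPM in zdna1. Their limma adjusted p-values ran from 0.00818 to 0.0165. ATP2C1 is a Golgi calcium pump and CD109 a surface protein that binds TGF-beta. SLFN5 lost the call without zdna3 CL replicate 1 (0.0573), zdna1 CL replicate 1 (0.0574) or zdna1 CL replicate 2 (0.121), ATP2C1 without zdna1 CL replicate 1 (0.0636), and CD109 without zdna3 CL replicate 1 (0.0914), zdna1 CL replicate 1 (0.067) or zdna1 CL replicate 2 (0.0738). SHOC1 lost it without any CL library of either number (0.0515 to 0.105), and ZNF395 and SHOC1 by DESeq2 (0.12 and 0.183). CD109 (0.0587) and SHOC1 (0.0599) also lost it with the zdna3 replicates summed. Within CC and CL, SLFN5 had −0.74 and −2.56 (limma adjusted p = 0.749 and 0.00258) and SHOC1 had −0.66 and −1.76 (0.686 and 0.00693). Of the abundant genes, DST, the linker dystonin, stood at 863, 777, 846 and 841 CPM in zdna3, against 1286, 1374, 1203 and 1290 CPM in zdna1 (log2 difference −0.60 ± 0.12, limma adjusted p = 0.00176). PRKDC, the DNA-dependent protein kinase, averaged 783 ± 71 CPM in zdna3 and 1180 ± 105 CPM in zdna1 (−0.56, 0.00747), a call lost without zdna3 CL replicate 2 (0.051) and with the zdna3 replicates summed (0.0652). CCND2, cyclin D2, averaged 461 ± 134 CPM in zdna3 and 814 ± 35 CPM in zdna1 (−0.79, 0.00121). The DST and CCND2 groups were fully separated, as the naming rule required.

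Within the arms, zdna3 and zdna1 differed in 58 genes within CC (1.26%, with 0.718% higher and 0.544% lower) and in 136 within CL (2.96%, with 1.7% higher and 1.26% lower). Of the 166 genes called over both arms, 163 had the same sign in each, but a call on both arms together nearly fixes this. The share of same signs over all tested genes was not computed, so the sign counts here have no background beside them. Of the 136 called in CL, 115 had the same sign in CC, 61 also passed an unadjusted p under 0.05 there (11.5% of all tested genes did) and 29 were called in both. Of the 58 called in CC, 52 had the same sign in CL and 41 passed an unadjusted p under 0.05 there (15.3% of all tested genes did). Across the 4596 genes, which are not independent replicates, the differences in the 2 arms had a Pearson r of 0.274. The zdna3 CC libraries are the shallowest, and the CC count fell to 17 without zdna3 CC replicate 2 and to 38 without zdna1 CL replicate 1. Its 33 rises and 25 falls became 16 rises and 54 falls without zdna3 CC replicate 1, and 22 rises and 1 fall by DESeq2. The CL count fell to 69, 74, 65 and 79 without zdna3 CL replicate 1, zdna3 CL replicate 2, zdna1 CL replicate 1 and zdna1 CL replicate 2. Its 78 rises and 58 falls became 31 and 38 without zdna3 CL replicate 1, and 31 and 43 without zdna3 CL replicate 2.

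**Figure D4:**
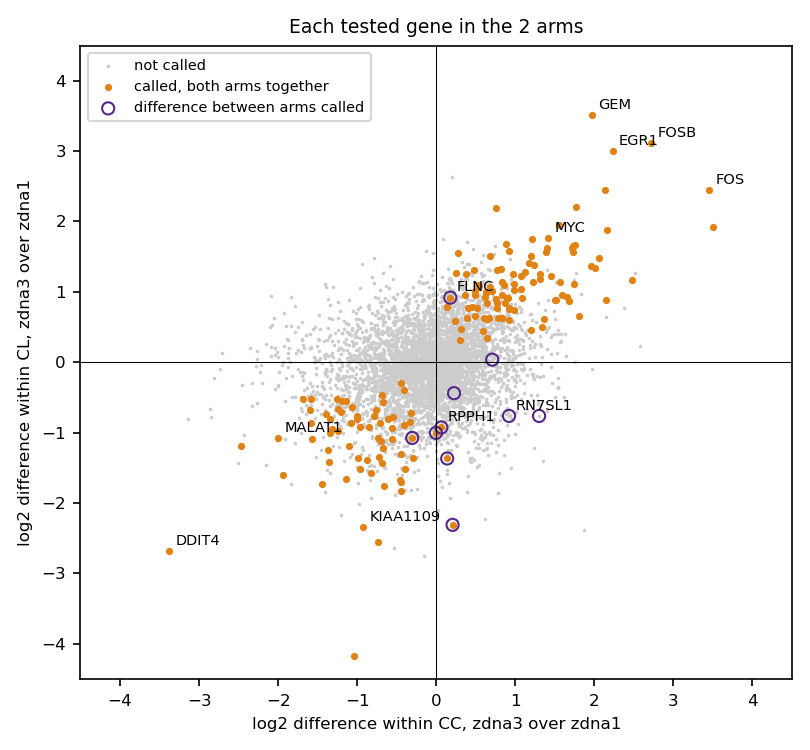
Log2 difference of CPM plus 10, zdna3 over zdna1, within CC (x axis) and within CL (y axis) for each of the 4596 tested genes. Orange points are the 166 genes called over both arms. Of these, 163 had the same sign in both arms, which a call on the arms together nearly fixes. Purple rings are the 10 genes whose difference was itself called different between the arms.

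The difference between zdna3 and zdna1 depended on the arm in 10 genes (0.218%): FLNC had a higher difference in CL (0.0218%), and RN7SL1, RPPH1, RN7SL2, RNU5E-1, RMRP, RNU4-2, RNU12, RNA5S9 and CIC had a lower one (0.196%). By edgeR the count was 15 (0.326%), and limma's fell to 4 without zdna3 CC replicate 2, to 5 without zdna3 CL replicate 2 and to 3 without zdna1 CL replicate 1. Without zdna3 CC replicate 1 it was 12, of which 8 were higher in CL and 4 lower. RN7SL1 encodes the 7SL RNA of the signal recognition particle, which guides secretory proteins to the endoplasmic reticulum. It stood at 7967 and 9648 CPM in zdna3 CC and 5986 and 5921 CPM in zdna3 CL, against 4561 and 4860 CPM in zdna1 CC and 9720 and 10424 CPM in zdna1 CL. It was thus higher in zdna3 within CC (log2 difference 0.92, limma adjusted p = 1.58e-10) and lower within CL (−0.76, 6.91e-11), and these differed by −1.68 ± 0.11 (limma adjusted p = 7.13e-16). RN7SL2, a second copy, stood at 10179 and 10966 CPM in zdna3 CC and 9308 and 8767 CPM in zdna3 CL, against 6504 and 6650 CPM in zdna1 CC and 9042 and 8511 CPM in zdna1 CL. Its differences were 0.71 within CC and 0.04 within CL (CL minus CC −0.67 ± 0.10, limma adjusted p = 2.87e-05), which turned to 0.03 on the deposited scale. Reads of the near-identical copies cannot be fully told apart. RPPH1, the RNA of RNase P, which trims transfer RNA precursors, stood at 4784 and 4965 CPM in zdna3 CC and 3397 and 3651 CPM in zdna3 CL, against 4804 and 4679 CPM in zdna1 CC and 6650 and 6699 CPM in zdna1 CL. The CC groups met and the CL groups lay apart (CL minus CC −0.99 ± 0.12, limma adjusted p = 3.4e-07), a call lost on the deposited scale (0.284). RMRP, the RNA of the related RNase MRP, had 0.23 within CC and −0.44 within CL (CL minus CC −0.66, limma adjusted p = 0.0048), which turned to 0.03 on the deposited scale. RNU5E-1 had −0.00 within CC and −1.0 within CL (CL minus CC −0.999, limma adjusted p = 0.00153), a call lost on the deposited scale (0.4). FLNC had 0.18 within CC and 0.92 within CL (CL minus CC 0.74, limma adjusted p = 0.0244). The FLNC call was lost by DESeq2 (0.772), with the zdna3 replicates summed (1) and without any 1 of 6 libraries (all but zdna1 CC replicate 2 and zdna1 CL replicate 2, 0.0869 to 0.312). RMRP lost it without either zdna3 CC replicate, zdna3 CL replicate 2 or zdna1 CL replicate 1 (0.0623 to 0.0915), by DESeq2 (0.27) and with the zdna3 replicates summed (0.353), and RNU5E-1 without zdna3 CC replicate 2, zdna3 CL replicate 1 or zdna1 CL replicate 1 (0.0519 to 0.0787) and by DESeq2 (0.0653). With no filter on low values the calls of RN7SL2 (0.058), FLNC (0.179), RMRP and RNU5E-1 (0.643 each) were lost, and that of FLNC also without array weights (0.0502). Both arms differ in contig share too, and its part in these results was not tested.

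**Figure D5:**
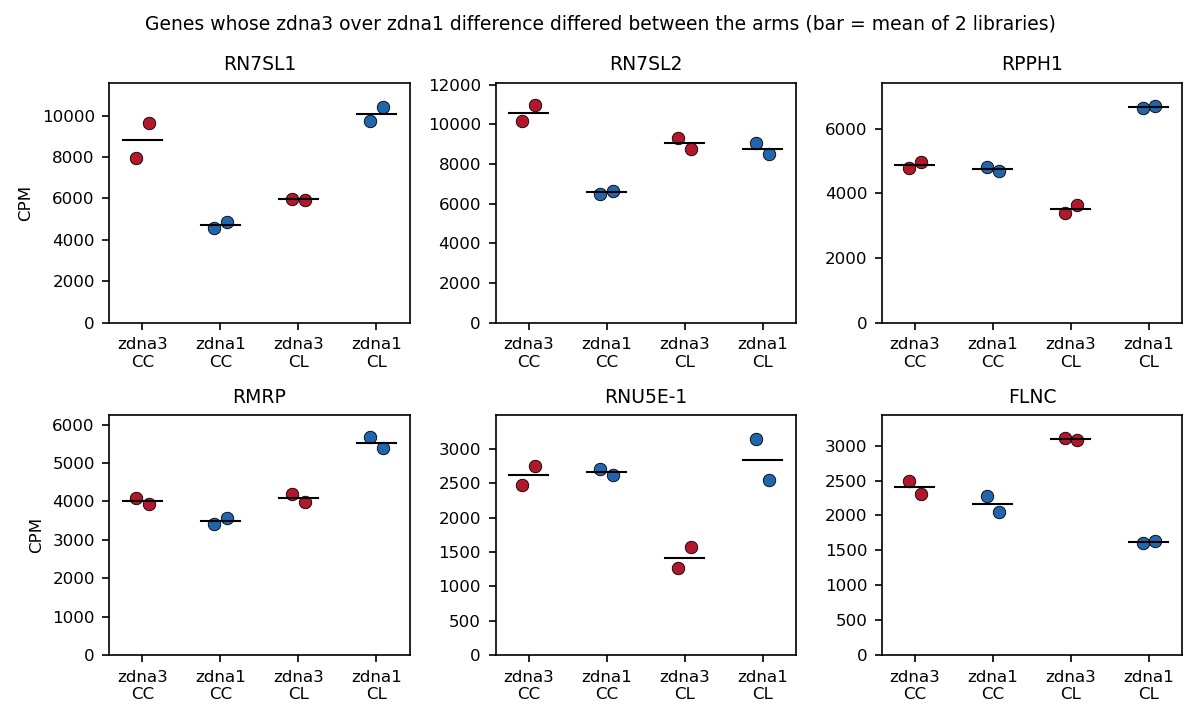
CPM of RN7SL1, RN7SL2, RPPH1, RMRP, RNU5E-1 and FLNC in each of the 8 libraries, zdna3 left of zdna1 within each arm; points are libraries and bars means of 2. RN7SL1 is higher in zdna3 in CC and lower in CL, and RN7SL2 and RMRP keep a difference between the arms on CPM that turned to 0.03 for each on the deposited scale.

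Among lists with few or no calls, 0 genes were called by limma among 41 of the nuclear-encoded respiratory chain, 32 proteasome subunits, 15 of the unfolded protein response and 6 interferon-stimulated genes, with medians of −0.09, 0.06, −0.12 and −0.00 on CPM. Heat shock chaperones had 2 rises and 0 falls among 17 tested (median 0.12, −1.31 on the deposited scale), the second being HSP90AA1 (log2 difference 0.47, limma adjusted p = 0.0185). The oxidative stress list had 2 rises and 0 falls among 17 (median 0.14, −1.26 on the deposited scale), in SQSTM1, the autophagy receptor p62 (1.22, 3.8e-05), and MT2A, a metallothionein (1.13, 0.00818).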

How the data were processed

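RNA of U2OS cells was measured by RNA-seq in 16 libraries, of which the 4 zdna3 and 4 zdna1 libraries were compared here. The submitters' processing notes name Trim Galore 0.6.6, STAR, bedtools 2.29.2 and the builds hg19 and dm6 without a role for any of them. Per the file headers, featureCounts 2.0.1 counted read pairs over exons without a strand option, on hg19 and 1 added contig per library, named for its number. The deposited values are a scaled signal, not counts: each is a whole number of reads times a constant per library (0.143 to 0.260 here) whose origin the sources used here do not give. The headers show a folder with spikein in its name.

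Dividing by the smallest step gave whole reads (within 0.1 read) for 99.99% or more of each library's nonzero values. The 28207 human gene rows were kept and the contig left out of library sizes. Levels are CPM of human-gene reads. Genes whose mean over the 8 libraries reached 50 CPM (4596) were tested with limma 3.58.1 (R 4.3.3) on log2 of CPM plus a pseudocount of 10, with TMM factors from edgeR 4.0.16, array weights per group, a mean-variance trend and arm as a block. All tests were two-sided, with Benjamini-Hochberg adjustment over all tested genes at 0.05. The weights were 0.498 for zdna3 CC, 0.8465 for zdna3 CL, 1.503 for zdna1 CC and 1.579 for zdna1 CL libraries. CL thus counted for more than CC in the fit over both arms. A fit of the 4 group means gave the differences within each arm and their difference. The pseudocount shrinks differences of low genes, but limma's log2 values were not always the smaller ones. FOSB had 2.95 by limma and 3.32 by edgeR, while GSE1 had −1.71 by limma and −1.52 by edgeR. Over all tested genes the median was −0.055 by limma, −0.017 by edgeR and −0.008 by DESeq2. Some called genes reached 50 CPM through 1 number alone. FOS, FOSB, EGR1, GEM, CXCL8 and NR4A1, for example, did so through zdna3, and DDIT4 and CD109 through zdna1. List counts and medians are therefore shaped in part by the values compared. The planned test for whole counts, edgeR's quasi-likelihood test, was run on the recovered reads beside DESeq2 1.42.0, as alternatives. The scripts were tested on simulated data.

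Genes named in the text were up to 12 called genes in each direction of the largest difference and the 6 most abundant in each direction, all without overlap between groups. To these came MYC and MAX, both FACT subunits, ADAR and ZBP1, TOP1, TOP2A and TOP2B, up to 4 called members of each described list (2 where none was called), and up to 5 genes in each direction for the difference between arms. A few genes this rule names are not reported here. Lists were described if at least 3 members were called or if they bear on the title. The comparison, lists and naming rule were chosen with earlier results of these data known. Genes named beyond the rule, among them HSP90AA1, SQSTM1 and MT2A, were chosen after their values were seen.

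Nothing in the labels shows replicates to be separate cultures, and p-values may reflect technical spread alone. Same-numbered replicates did not deviate together (correlations −0.0693 to 0.0397 over 925 genes), so the number was not used as a block. Reads of near-identical copies, such as histones, U4 and 7SL RNAs, are uncertain. Promoter windows are from RefSeq and small RNA sequences from GENCODE, aligned with Biopython 1.88. Gene positions of the files are hg19.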

Additional observations from a re-analysis of the deposited data

Results flagged for a closer look

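The difference between zdna3 and zdna1 itself differed between the arms, by limma's test of that difference, in 10 genes. Of these, 6 were named by the rule for that test and are given here. RNU4-2 and RNU12, named by other rules, were called too (limma adjusted p = 0.0244 and 0.0149). On the log2 scale, CL minus CC was 0.741 for FLNC, −1.68 for RN7SL1, −0.99 for RPPH1, −0.67 for RN7SL2, −0.999 for RNU5E-1 and −0.664 for RMRP. Of these 6, only RN7SL1 was called within each arm with opposite signs.

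Reads on the added contig, outside the gene comparison and with no control library to set them against, were above the limit that a count of 0 allows in each group. They came to 7028 per 1000 human-gene reads in zdna3 CC, 268.7 in zdna3 CL, 361 in zdna1 CC and 3.659 in zdna1 CL (means of 2 libraries). The contigs of zdna3 and zdna1 are different sequences, so these values are given side by side and not compared.

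Reads on 423 olfactory receptor genes, which bone-derived cells are not known to use, summed to 198, 165, 202 and 420 CPM in the zdna3 libraries (CC, then CL), against 234, 152, 69.1 and 63.6 CPM in the zdna1 libraries. Their part in the results was not tested.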

How the results depend on the processing

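The deposited scale changed most. It called 4308 genes over both arms (6 higher), 4076 within CC, 3280 within CL and 168 between arms. On it these log2 differences turned sign: PLEC −1.28, FLNC −1, THBS1 −0.43, NCL −1.18, HSPA8 −0.8, CHD4 −1.15, SUPT16H −1.36, SSRP1 −1.27, ADAR −1.33, TOP2B −1.23, HMGB2 −0.686, TOP1MT −0.76, ILF2 −1.25, ZFP36L1 −0.751, DUSP1 −0.313, ANKRD1 −0.185, GADD45A −0.525, HMGCS1 −0.176, COL4A1 −0.178, COL4A2 −0.804, H2BC11 −0.0164, H1-2 −0.753, H2AC6 −0.189, H2BC12 −0.816, NOLC1 −0.6, DDX18 −0.701, UBTF −0.832, SOD2 −0.249 and RN7SL2 −1.26, and CL minus CC turned to 0.0261 for RN7SL2 and 0.0294 for RMRP. DESeq2 called 75 genes over both arms, 23 within CC, 40 within CL and 3 between arms. Summing the zdna3 replicates, which leaves fewer samples, gave 78, 12, 51 and 4. With no filter on low values the counts were 205 (27.8% higher, against 59.0%), 13, 28 and 2. Without array weights CL had 68 and the difference between arms 5, and a filter of 200 CPM gave 20 between arms. Leaving out 1 library gave 87 to 164 over both arms, 17 to 70 within CC, 65 to 150 within CL and 3 to 12 between arms. With the replicate block the counts were 168, 58, 139 and 10, but the numbers do not pair the libraries. Of 64 named genes called over both arms, 37 were called in every fit without 1 library, 63 by edgeR, 39 of 57 given an adjusted p by DESeq2, 45 with the zdna3 replicates summed and 61 with the replicate block. Other pseudocounts, scalings and fits kept the totals within 1.5 times, but the split moved: 98 higher and 68 lower over both arms became 99 and 121 in the fit on all 16 libraries and 89 and 98 with a filter of 20 CPM. On all 16 libraries it was 26 and 34 within CC (33 and 25 in the 8) and 63 and 73 within CL (78 and 58). Of the named calls, the deposited scale also ended those of ATF3, NFKBIA, JUN, CCN2, NR4A1, PDLIM4, MYC and TNFAIP3 (limma adjusted p 0.0822 to 0.852). Those of NCL, CHD4, ERRFI1, GADD45A, RRM2B, RNU5E-1, RNU12, NORAD, DDX18 and RPPH1 ended without array weights (0.0522 to 0.167), and those of PLEC, NCL, CHD4, GADD45A, COL4A2, DDX18 and UBTF with no filter (0.0555 to 0.523). The cause was not tested. Depth limits genes near 50 CPM, which is 2 to 4 reads in a zdna3 library.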
